A study of Mus musculus with 8 samples.

Results

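Perineuronal nets are lattices of extracellular matrix that wrap the cell body and proximal dendrites of many PV+ interneurons. Hyaluronan chains, spun out at the cell membrane by hyaluronan synthases, carry chondroitin sulfate proteoglycans of the lectican family, link proteins of the Hapln family clamp each lectican to the hyaluronan, and the glycoprotein tenascin-R ties lecticans to one another. In the cortex these nets thicken as postnatal plasticity declines, and their parts are supplied by neurons and by glia.

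The 10 genes described here encode the core of this matrix. They are the lecticans *Acan* (aggrecan), *Bcan* (brevican), *Ncan* (neurocan) and *Vcan* (versican), the link proteins *Hapln1* and *Hapln4*, tenascin-R (*Tnr*), the hyaluronan synthase *Has3*, the membrane phosphatase *Ptprz1*, whose secreted form is phosphacan, and the membrane proteoglycan *Cspg5* (neuroglycan C). They were chosen by name, not by their values, from the 45706 genes in the deposited tables, and all 10 were among the 17495 genes tested.

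Ribosome-associated mRNA of PV+ interneurons was sequenced from the primary somatosensory cortex (S1) of PvalbFlp/+;Neurod6Cre/+ mice between postnatal days 42 and 70, in 4 samples with CNO and 4 with vehicle. All mice, vehicle included, were infected at postnatal day 1 with a flox-fdio AAV that encodes HA-RPL10a, a tagged ribosomal protein used for the pulldown, together with myc-hM3Dq, a receptor that raises neuronal activity when CNO binds it. CNO was given at 1 mg/kg in 5 injections over 48 h, and each sample pooled tissue from 4 brains. The virus used the neuronal hSyn promoter, required Flp from the *Pvalb* locus and was inactivated by Cre in *Neurod6*-expressing pyramidal cells. No group received CNO without hM3Dq. In pulled-down RNA from tissue, fewer cells of a type and less RNA per cell cannot be told apart.

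Each sample held between 44064161 and 49413273 counts, and 3 counts, the smallest level taken as seen, corresponded to 0.0607 to 0.0681 CPM (counts on a common library scale, set with edgeR's TMM method). This floor covers counting error only. *Fos*, an immediate early gene induced by neuronal activity, lay between 36.9 and 83.7 TPM (a scale that also corrects for transcript length) in the CNO samples and between 13.8 and 20.6 TPM in the vehicle samples, with a log2 fold change of 1.93 and an adjusted p of 0.0520 in edgeR's quasi-likelihood test. *Pvalb* was present in every sample, between 300.1 and 1160 TPM. The library labelled vehicle replicate 1 stood apart. The 10 genes listed as PV+ interneuron markers averaged a log2 CPM of 5.51 there against 6.57 to 7.41 in the other 7 samples. They were *Pvalb*, *Gad1*, *Gad2*, *Slc32a1*, *Lhx6*, *Erbb4*, *Syt2*, *Kcnc1*, *Cox6a2* and *Sox6*, and not all of them are limited to PV+ cells. Markers of other cell types were also present, and 0 of the 65 listed markers of 8 cell types was at 0. The summed TPM of 10 astrocyte markers lay between 538 and 713, that of 8 oligodendrocyte precursor markers between 45.3 and 71.0, and that of 10 pyramidal cell markers between 1392 and 2240.

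The 10 net genes differed widely in level in the pulled-down RNA, which also held markers of other cell types. How much of each level came from PV+ interneurons was not tested. *Hapln4*, *Cspg5* and *Bcan* were the most abundant, with means over the 8 samples of 167.9, 132.7 and 98.8 TPM, above 94.4%, 92.3% and 89.0% of the genes tested. *Ncan*, *Ptprz1*, *Tnr* and *Hapln1* formed a middle group with means of 22.5, 18.0, 16.2 and 12.98 TPM, near the centre of all genes tested (49.3% to 61.0% of genes were lower). *Has3*, *Acan* and *Vcan* were low, at 1.44, 1.16 and 0.938 TPM, with 12.6% to 17.5% of tested genes below them. Between these 3 groups the steps were clear of the spread between samples: *Bcan* exceeded *Ncan* 3.70 to 4.90 times within each sample, and *Hapln1* exceeded *Has3* 5.70 to 11.9 times. *Cspg5* exceeded *Bcan* in 8 of 8 samples and their ranges did not overlap. Every other pair of neighbours overlapped in range, including *Hapln4* and *Cspg5* (the former higher in 7 of 8 samples), *Tnr* and *Hapln1* (4 of 8) and *Acan* and *Vcan* (6 of 8). The depth behind these levels was 101 to 247 counts per sample for *Acan*, the lectican most used to label the nets, and 4176 to 5474 counts for *Bcan*.

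**Figure D1:**
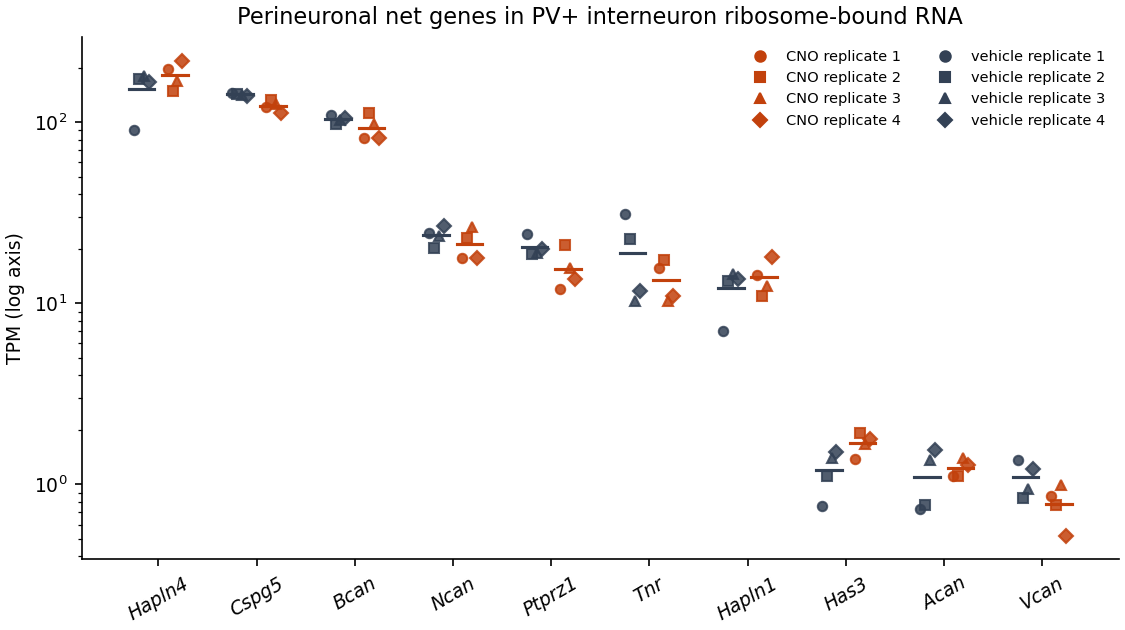
Levels of the 10 net genes in each sample, in TPM on a log axis, ordered by their mean over the 8 samples. Each symbol is 1 sample (shape gives the replicate number, blue vehicle, orange CNO) and each bar is a group mean. Mean levels run from 167.9 TPM for Hapln4 to 0.938 TPM for Vcan, and vehicle replicate 1 is the lowest of the 8 samples for Hapln4, Hapln1, Has3 and Acan.

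None of the 10 genes passed the test of CNO against vehicle. Calls required an adjusted p under 0.05 over all genes (edgeR's quasi-likelihood test, Benjamini-Hochberg), more than a 1.5-fold difference and a mean above 1 TPM. They comprised 0 of 10 net genes and 0.0% of the 17495 genes tested. *Vcan*, at a mean of 0.938 TPM, could not meet the last condition. By adjusted p alone the count was also 0 of 10. At an unadjusted p under 0.05 the test held 1 of 10 net genes (*Vcan*, lower), where 4.09% of all tested genes (716) passed. The Wald test of DESeq2 also called 0 of 10 after adjustment, with *Vcan* under an unadjusted 0.05, and edgeR's likelihood ratio test with robust dispersion called 0 of 10, with *Vcan* and *Ptprz1* under an unadjusted 0.05. With limma on log2(TPM + 1) the count was again 0 of 10, with *Ptprz1* and *Cspg5* under an unadjusted 0.05. Over all genes tested, the shares under an unadjusted 0.05 were 4.77% for DESeq2, 4.81% for the likelihood ratio test and 5.37% for limma, and DESeq2 called 10 genes and the likelihood ratio test 12. Values were higher with CNO for 4 of the 10 and lower for 6, with a median log2 fold change of -0.087, beside a median of 0.00145 over all genes tested. The adjusted p of the 10 genes lay between 0.817 and 0.865. On counts, the 95% interval of the log2 fold change excluded a 1.5-fold change in either direction for *Bcan*, *Ncan*, *Tnr* and *Cspg5*. For the other 6 it included one. The exclusion for *Tnr* is limited to counts: limma on log2(TPM + 1) gave -0.353 (SE 0.319), and no interval was taken on that scale.

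**Figure D2:**
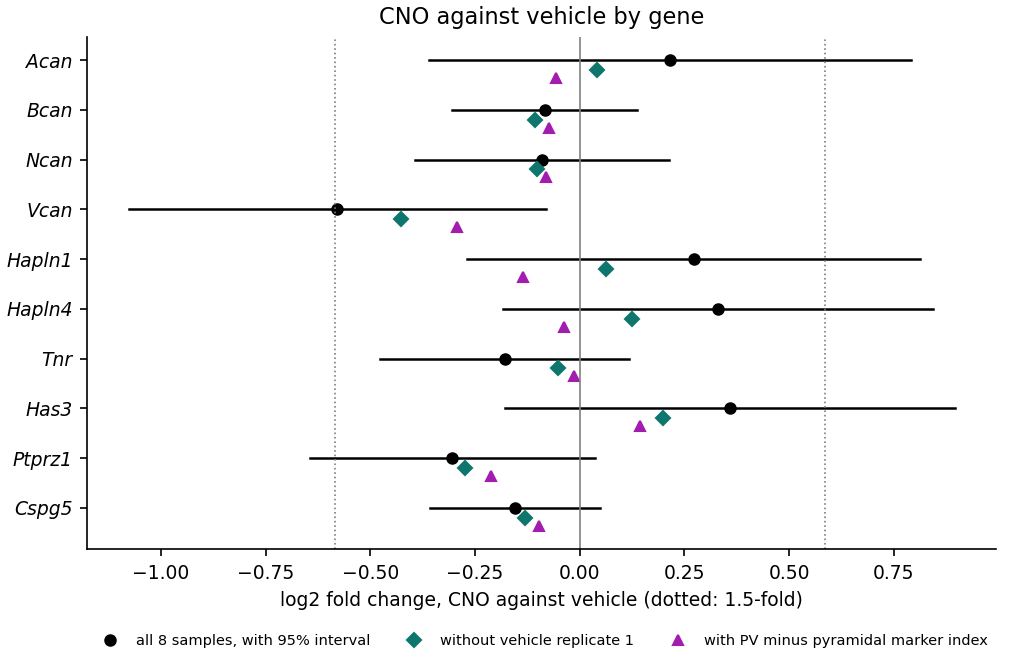
Log2 fold change of each net gene, CNO against vehicle, from edgeR's quasi-likelihood fit (black, with 95% interval, 8 samples), from the fit without vehicle replicate 1 (green) and from the fit with the PV minus pyramidal marker index as a covariate (purple). Dotted lines mark a 1.5-fold change. The Vcan interval, from -1.08 to -0.08, is the only one of the 10 in black that lies on 1 side of 0, and the values of Acan, Hapln1 and Hapln4 fall below 0 with the index.

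The lecticans are 4 related core proteins that bind hyaluronan at one end and tenascin-R at the other. Brevican made up most of their mRNA in the pulldown. *Bcan* accounted for 77.2% to 81.9% of the lectican TPM in a sample, *Ncan* for 16.7% to 20.9%, *Acan* for 0.539% to 1.27% and *Vcan* for 0.514% to 1.00%. These shares are of all pulled-down RNA, and the share within PV+ interneurons was not tested. The sum of the 4 lay between 101 and 137 TPM. This order of *Bcan*, *Ncan* and then the other two was the same in all 8 samples.

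The sequences before the start sites of the 4 lecticans are shown because these genes differ so much in level within 1 family. They are the 250 bases upstream of the RefSeq transcription start on GRCm38.p6, written 5′ to 3′ on the strand of the gene: *Acan* at chr7:79052976-79053225 (plus strand), *Bcan* at chr3:88000357-88000606 (minus), *Ncan* at chr8:70120845-70121094 (minus) and *Vcan* at chr13:89742513-89742762 (minus).
Acan: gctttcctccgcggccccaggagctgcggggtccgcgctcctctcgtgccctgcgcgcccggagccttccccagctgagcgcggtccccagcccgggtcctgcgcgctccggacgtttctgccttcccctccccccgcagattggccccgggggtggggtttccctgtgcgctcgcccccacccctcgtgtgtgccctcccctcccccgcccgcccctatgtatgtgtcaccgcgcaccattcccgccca
Bcan: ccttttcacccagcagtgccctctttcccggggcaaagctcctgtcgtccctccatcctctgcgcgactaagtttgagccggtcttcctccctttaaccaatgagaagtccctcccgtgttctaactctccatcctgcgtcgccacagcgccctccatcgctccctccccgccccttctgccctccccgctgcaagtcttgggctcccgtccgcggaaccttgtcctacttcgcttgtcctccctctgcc
Ncan: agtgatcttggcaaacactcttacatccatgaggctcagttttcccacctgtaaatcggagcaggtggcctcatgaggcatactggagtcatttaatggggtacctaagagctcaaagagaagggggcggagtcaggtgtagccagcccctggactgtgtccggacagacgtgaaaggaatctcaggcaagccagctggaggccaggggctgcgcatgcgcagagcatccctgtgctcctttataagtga
Vcan: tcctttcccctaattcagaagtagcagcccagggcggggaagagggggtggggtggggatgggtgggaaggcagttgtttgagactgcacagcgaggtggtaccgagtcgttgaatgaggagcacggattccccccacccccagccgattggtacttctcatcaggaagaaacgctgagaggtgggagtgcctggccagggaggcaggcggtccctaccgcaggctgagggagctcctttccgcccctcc
GC content of the 300-base windows around these starts, which reach from 250 bases before to 50 after, was 74.0% for *Acan*, 64.0% for *Bcan*, 56.7% for *Ncan* and 61.0% for *Vcan*, beside a median of 52.7% over all 32851 promoter windows of the table. The AP-1 motif TGANTCA, bound by Fos and Jun proteins, was found on neither strand in the windows of the 7 net genes that matched the table, where 7.81% of all windows hold it. The cAMP response element TGACGTCA, in 1.79% of all windows, and the E-box CACGTG, in 7.15%, were not found in these 7 windows either. These counts describe only the letters of these windows. *Hapln4*, *Has3* and *Cspg5* had no entry.

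*Acan* stood at 1.12, 1.11, 1.39 and 1.28 TPM in CNO replicates 1 to 4 and at 0.735, 0.770, 1.36 and 1.54 TPM in vehicle replicates 1 to 4. The CNO samples therefore lay inside the range of the vehicle samples, which themselves fell into a low pair (replicates 1 and 2) and a high pair (replicates 3 and 4). Its log2 fold change was 0.22 (SE 0.26, 95% interval -0.36 to 0.79), and group means of 4.17 ± 0.598 and 3.59 ± 1.41 CPM (SD, n = 4 each, CNO and vehicle) gave p = 0.457 in a two-sided exact permutation test. Here and below these tests run over the 70 assignments of 4 samples against 4, can reach no p below 0.0286 and are not adjusted. Without vehicle replicate 1 the log2 fold change of *Acan* was 0.042. Within replicates 1 and 2 it was 0.62, and within replicates 3 and 4 it was -0.038. The labels name no batch that would separate these replicate numbers.

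*Bcan* and *Ncan* showed small differences. *Bcan* measured 81.4, 113, 97.6 and 81.7 TPM in the CNO samples and 110, 98.1, 103 and 106 TPM in the vehicle samples. In TPM, CNO replicates 1 and 4 lay well below the vehicle samples, replicate 3 just below the lowest of them and replicate 2 above them all. In CPM, CNO replicates 2 and 3 (110.65 and 109.2) lay inside the vehicle range of 102.03 to 111.15. The log2 fold change of *Bcan* was -0.084 (SE 0.0998, exact permutation p = 0.314 on CPM). *Ncan* measured 17.8, 23.0, 26.4 and 17.7 TPM with CNO and 24.5, 20.1, 23.6 and 26.6 TPM with vehicle, a log2 fold change of -0.090 (SE 0.137, exact permutation p = 0.543). The same CNO replicates, 1 and 4, were the low ones for *Ncan*. Both genes are expressed by astrocytes as well as neurons. CNO replicates 1 and 4 also had the lowest mean log2 CPM of the 10 astrocyte markers, 5.49 and 5.53 against 5.61 to 5.87 in the other 6 samples. They were lowest too for the oligodendrocyte (4.93 and 4.77), oligodendrocyte precursor (3.10 and 2.99) and microglia markers (2.82 and 2.78). The PV+ interneuron markers were highest in these replicates (7.23 and 7.41). With an index of astrocyte and precursor markers in the fit, the log2 fold changes were 0.0063 for *Bcan* and 0.054 for *Ncan*. The part of any cell type in these values was not tested.

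*Vcan*, the lectican of developing tissue and of oligodendrocyte precursors, was the net gene with the lowest value relative to vehicle. It measured 2.27, 2.68, 2.40 and 1.70 CPM in CNO replicates 1 to 4 and 4.43, 3.69, 2.33 and 3.09 CPM in vehicle replicates 1 to 4. Of the vehicle samples in CPM, replicate 3 fell among the CNO samples and the other 3 lay above all of them. The log2 fold change was -0.58 (SE 0.226, 95% interval -1.08 to -0.08, unadjusted p = 0.0266 and adjusted p = 0.817 in edgeR's quasi-likelihood test), and the exact permutation p on CPM was 0.0857. In TPM, *Vcan* measured 0.859, 0.765, 0.987 and 0.520 with CNO and 1.37, 0.841, 0.947 and 1.22 with vehicle. Vehicle replicates 2 and 3 both fell among the CNO samples in that unit, with an exact permutation p of 0.143. With limma on log2(TPM + 0.1) the log2 fold change was -0.442 (SE 0.252). The gene rests on 81 to 198 counts per sample. Leaving out CNO replicate 4, vehicle replicate 1 or vehicle replicate 2 gave log2 fold changes of -0.48, -0.43 and -0.56 with unadjusted p-values of 0.0785, 0.0863 and 0.0641 in the quasi-likelihood test. The mean log2 CPM of 8 oligodendrocyte precursor markers was 0.12 lower with CNO (3.12 ± 0.102 against 3.25 ± 0.0873, SD, n = 4 each, exact permutation p = 0.114), 7 of 8 markers being lower. This was not particular to precursors. The differences were -0.208 for oligodendrocyte, -0.195 for microglia, -0.12 for pyramidal cell, -0.11 for astrocyte and -0.024 for other interneuron markers. For PV+ interneuron and endothelial cell markers they were 0.51 and 0.24. The part of any cell type in the *Vcan* values was not tested. With the index of astrocyte and precursor markers in the fit the log2 fold change of *Vcan* was -0.32 (SE 0.236), and with the index of PV+ interneuron minus pyramidal cell markers, which holds no precursor marker, it was -0.29 (SE 0.185).

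Among the link proteins, *Hapln4*, a brain link protein that stabilizes brevican in nets, was by far the most abundant. Of the summed TPM of *Hapln1* to *Hapln4*, *Hapln4* made up 71.9% to 86.5%, *Hapln2*, a link protein of myelinated tracts, 6.10% to 22.1%, *Hapln1* 5.57% to 7.11% and *Hapln3* 0.276% to 0.759%. The lowest share of *Hapln4* and the highest share of *Hapln2* were both in vehicle replicate 1. *Hapln2* made up 22.1% of 126 TPM there and 17.7% of 197 TPM in CNO replicate 2. The 8 oligodendrocyte markers had their highest mean log2 CPM in vehicle replicate 1, 5.44 against 4.77 to 5.35 in the other samples. Pyramidal cell (6.30), astrocyte (5.87) and microglia markers (3.37) were also highest there, but the remaining marker lists were not. The sum of the 4 link proteins ran from 126 TPM in vehicle replicate 1 to 253 TPM in CNO replicate 4.

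*Hapln4* measured 195, 149, 169 and 219 TPM in CNO replicates 1 to 4 and 90.6, 172, 181 and 167 TPM in vehicle replicates 1 to 4. Outside vehicle replicate 1 the 2 groups overlapped, with CNO samples both above and below the vehicle samples. A log2 fold change of 0.33 (SE 0.233) resulted, and means of 295.5 ± 61.5 and 235 ± 70.8 CPM (SD, n = 4 each) gave an exact permutation p of 0.286. *Hapln1*, which stabilizes the binding of aggrecan to hyaluronan, measured 14.2, 10.95, 12.4 and 18.0 TPM with CNO and 7.03, 13.2, 14.4 and 13.6 TPM with vehicle. It had the same order of samples at the ends, lowest in vehicle replicate 1 and highest in CNO replicate 4, and a log2 fold change of 0.27 (SE 0.245, exact permutation p = 0.486). Without vehicle replicate 1 the log2 fold changes were 0.13 for *Hapln4* and 0.063 for *Hapln1*.

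The 2 link proteins followed each other across samples more closely than any other pair of the 10 genes. The root mean square difference between their log2 CPM, each centred on its mean over the 8 samples, was 0.0666, against 0.122 for the next pairs (*Bcan* with *Cspg5* and *Bcan* with *Ncan*) and 0.794 for the farthest pair (*Hapln1* with *Vcan*). The PV+ interneuron markers had the same extremes, 5.51 mean log2 CPM in vehicle replicate 1 and 7.41 in CNO replicate 4. All 10 of these markers had higher values with CNO, with a mean difference of 0.51 on the log2 scale (7.06 ± 0.362 against 6.55 ± 0.697, SD, n = 4 each, exact permutation p = 0.229) and summed TPM of 2523 to 3914 with CNO and 1170 to 3114 with vehicle. With the difference between PV+ interneuron and pyramidal cell markers as a covariate, the log2 fold change was -0.038 for *Hapln4* (SE 0.0747) and -0.135 for *Hapln1* (SE 0.079). This covariate comes from the same 8 samples and was -0.783 in vehicle replicate 1 against 0.4375 to 1.563 in the others. The fit cannot separate it from treatment, and the part of the marker levels in these results was not tested.

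**Figure D3:**
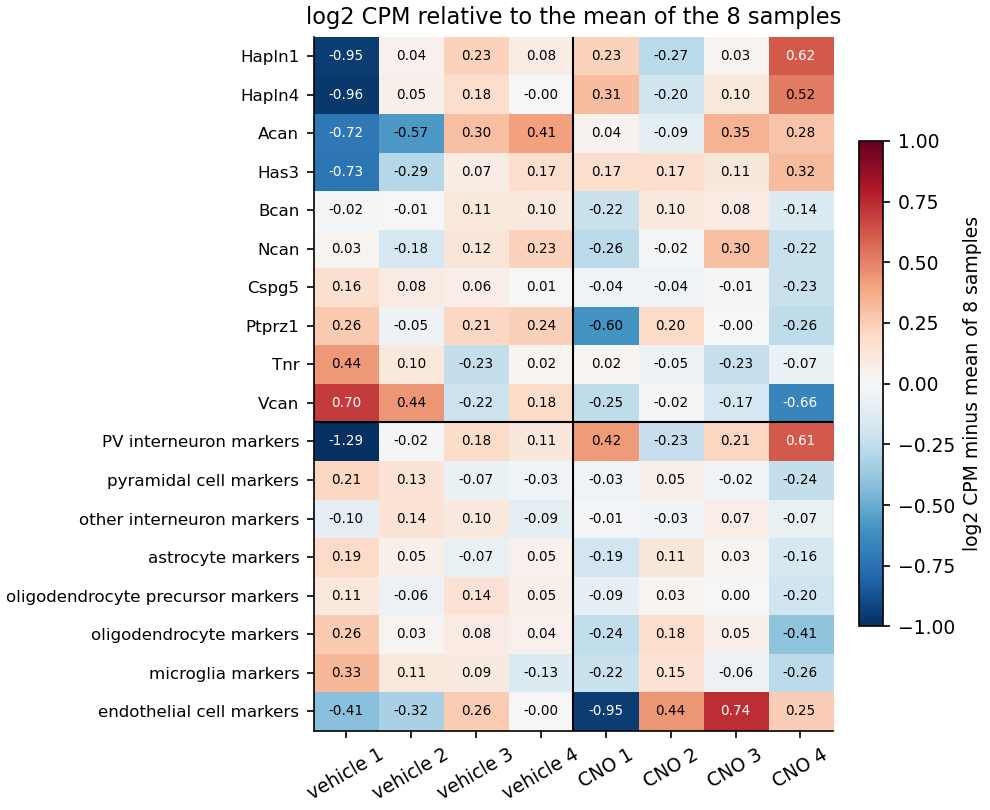
Log2 CPM of the 10 net genes (upper rows) and mean log2 CPM of 8 cell type marker lists (lower rows) in each sample, as differences from the mean over the 8 samples, with each value printed. Red is above and blue below that mean, and colours stop at 1 in either direction. Vehicle replicate 1 is low for Hapln1, Hapln4, Acan, Has3 and the PV+ interneuron markers and high for Vcan and Tnr, and CNO replicate 4 shows the opposite signs for Hapln1, Hapln4 and Vcan.

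Each gene of the link protein family lies beside a lectican gene in the mouse genome, and no coding gene of the annotation stands between the members of a pair. On GRCm38 with GENCODE release M21, *Acan* (chromosome 7, 79053483 to 79115099) ends 2 bases from *Hapln3*, *Ncan* (chromosome 8, 70093085 to 70120873) lies 2222 bases from *Hapln4* (70083457 to 70090862), *Bcan* (chromosome 3, 87987531 to 88000230) lies 21519 bases from *Hapln2*, and *Vcan* (chromosome 13, 89655312 to 89742509) lies 43659 bases from *Hapln1* (89539796 to 89611652). For the 2 pairs in which both are net genes, the root mean square difference in centred log2 CPM was 0.506 for *Ncan* and *Hapln4* and 0.794 for *Vcan* and *Hapln1*. The exons of *Acan* overlap no annotated gene.

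Tenascin-R, which crosslinks lecticans, is made by oligodendrocytes and by some interneurons. *Tnr* (chromosome 1, 159523769 to 159931729) measured 25.3, 24.0, 21.2 and 23.7 CPM with CNO and 33.7, 26.7, 21.1 and 25.2 CPM with vehicle. All CNO samples lay within the vehicle range, and vehicle replicate 1 was the highest of the 8. It had a log2 fold change of -0.18 (SE 0.135, exact permutation p = 0.343), of -0.052 without vehicle replicate 1 and of -0.014 with the PV minus pyramidal index. In TPM the same gene read 15.6, 17.2, 10.3 and 10.9 with CNO and 30.9, 22.7, 10.3 and 11.6 with vehicle, so that replicates 1 and 2 were above replicates 3 and 4 in both groups.

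The 2 units differ by the transcript length that the authors' quantification assigned to a gene in each sample, and by the scaling of whole samples. The ratio of counts to TPM was taken relative to its mean over samples and to the median over genes in each sample, which removes that scaling. For *Tnr* this ratio was 0.942, 0.878, 1.2 and 1.22 in the CNO samples and 0.711, 0.721, 1.21 and 1.34 in the vehicle samples. The ratio was lower in replicates 1 and 2 than in replicates 3 and 4 in both groups, and it spanned 1.88 times between samples, more than in 99.1% of the 13534 genes compared. *Vcan* spanned 1.91 times (more than in 99.2% of genes), with the highest value in vehicle replicate 2 and the lowest in CNO replicate 3, and *Has3* 1.35 times. The median over genes was 1.06 times, and *Acan*, *Ncan*, *Hapln1* and *Hapln4* spanned at most 1.01 times. The assigned length therefore matters for *Tnr* and *Vcan* and hardly for these 4. The log2 fold change of *Ncan* still differed by unit, at -0.0904 on counts and -0.162 in limma on log2(TPM + 1). For *Hapln4* the 2 values were 0.33 and 0.297. *Tnr* has 5 and *Vcan* 9 annotated transcripts, and which isoforms were read was not tested. Exons of *Tnr* also overlap the gene model *Gm38039*, and 3.36% of the short stretches of its sequence recur in transcripts of other genes.

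**Figure D4:**
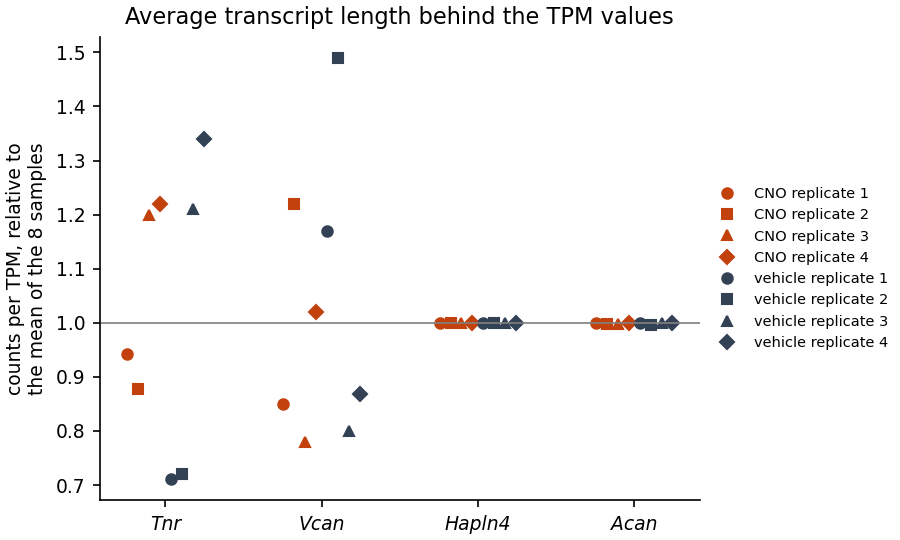
Counts per TPM in each sample, relative to the mean over the 8 samples and to the median over genes in that sample, for 4 net genes. This ratio follows the average transcript length assigned to the gene. Each symbol is 1 sample. Tnr lies between 0.711 and 0.942 in replicates 1 and 2 and between 1.2 and 1.34 in replicates 3 and 4 of both groups, Vcan between 0.780 and 1.49, and Hapln4 and Acan stay close to 1.

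*Has3*, one of 3 hyaluronan synthases, measured 1.38, 1.92, 1.67 and 1.77 TPM in CNO replicates 1 to 4 and 0.756, 1.11, 1.40 and 1.5 TPM in vehicle replicates 1 to 4. In TPM the 2 groups overlapped through the lowest CNO sample, which fell below the 2 highest vehicle samples. In CPM the overlap was wider: the CNO samples were at 1.2507, 1.2466, 1.1993 and 1.3884 CPM, and 3 of them lay below the 1.2510 CPM of vehicle replicate 4. *Has3* had a log2 fold change of 0.36 (SE 0.243, exact permutation p = 0.114 on 1.27 ± 0.0815 and 0.990 ± 0.273 CPM, SD, n = 4 each), and it was 0.20 without vehicle replicate 1 and 0.143 with the PV minus pyramidal index. It rests on 28.8 to 65.9 estimated counts per sample, its exons overlap those of *Chtf8*, and 5.07% of the short stretches of its sequence are found in transcripts of other genes. *Has1* was at 2.60 to 5.13 TPM with a log2 fold change of -0.29 (SE 0.205) that was -0.148 without vehicle replicate 1, and *Has2* had too few counts to be tested.

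*Ptprz1* and *Cspg5* are chondroitin sulfate proteoglycans of the cell membrane, the former abundant in astrocytes and oligodendrocyte precursors and the latter in neurons and glia. *Ptprz1* (chromosome 6, 22875502 to 23052916) measured 28.4, 49.1, 42.8 and 35.9 CPM with CNO and 51.3, 41.5, 49.6 and 50.5 CPM with vehicle. CNO replicates 1 and 4 lay below all vehicle samples, and the other two lay between vehicle replicate 2 and the remaining vehicle samples. Its log2 fold change was -0.30 (SE 0.154, 95% interval -0.64 to 0.036) and the exact permutation p was 0.114. CNO replicates 1 and 4, the low samples, were again the 2 lowest for the astrocyte markers, and also for the oligodendrocyte, oligodendrocyte precursor and microglia markers. Of the astrocyte markers 8 of 10 had lower values with CNO (mean difference -0.11 on the log2 scale, exact permutation p = 0.257, summed TPM 538 to 636 with CNO and 553.5 to 713 with vehicle). The part of any cell type in the *Ptprz1* values was not tested.

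*Cspg5* (chromosome 9, 110243783 to 110262576) was the 1 net gene whose groups did not overlap. It measured 120, 132, 127 and 113 TPM in the CNO samples and 145, 143, 142 and 140 TPM in the vehicle samples, so that 4 of 4 CNO samples lay below the lowest vehicle sample, and the same held in CPM (148 ± 9.84 against 164.5 ± 7.52, SD, n = 4 each). Groups without overlap in CPM were found for 2.42% of the genes tested (423). The exact permutation p was 0.0286, the smallest this design can give. Its log2 fold change was -0.16 (SE 0.0921, 95% interval -0.36 to 0.048, adjusted p = 0.817), and it was -0.13 without vehicle replicate 1 and -0.097 with the marker index as a covariate.

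Among all other genes tested, the profiles most like that of *Acan* over the 8 samples, by the root mean square difference of centred log2 CPM and with a mean TPM above 1, were *Chml* (0.132), which encodes a Rab escort protein, the matrix metalloproteinase gene *Mmp15* (0.152), the gene models *Gm8898* (0.161) and *Gm26904* (0.167), and the semaphorin gene *Sema3e* (0.161). Of the net genes *Has3* was the nearest to *Acan*, at 0.204.

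The genes that build, modify, cut and bind the matrix were read from 12 lists. Beside the 10 net genes these held 84 genes that were tested. None of the 84 passed the adjusted test, 4 were at an unadjusted p under 0.05 (1 higher and 3 lower with CNO), 36 had higher and 48 lower values, and the median log2 fold change was -0.050. The count of 4 is near the 4.09% of all tested genes at that threshold (252 higher and 464 lower). Whatever their p, 8810 of all tested genes had higher and 8685 lower values with CNO. Of the 84 genes, 4 did not overlap between groups in CPM, all lower with CNO, beside 2.42% of all genes tested: *Arsb*, *Gusb*, the sulfate transporter *Slc26a2* (log2 fold change -0.21, SE 0.112) and the adhesion molecule *Ncam1* (-0.068, SE 0.0757).

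Chondroitin sulfate chains are started on serine residues of the core proteins, lengthened, sulfated and later broken down in lysosomes, each by its own enzymes. Of 13 genes for chain linkage and polymerization 6 were higher and 7 lower with CNO (median log2 fold change -0.051). *Csgalnact1*, which starts the chain after the linker, was at 14.03 ± 1.91 CPM with CNO and 18.0 ± 2.79 CPM with vehicle (SD, n = 4 each), a log2 fold change of -0.36 (SE 0.135, exact permutation p = 0.0857, adjusted p = 0.817 in edgeR) that was -0.168 with the PV minus pyramidal index. *Xylt1*, the first enzyme of the linker, had a log2 fold change of -0.47 (SE 0.220), which was -0.29 without vehicle replicate 1 and -0.135 with the PV minus pyramidal index. Of 12 sulfation genes 10 were lower (median -0.214, 0 at an unadjusted p under 0.05), among them *Chst15*, which makes the disulfated E unit (-0.26, SE 0.120), and the uronyl sulfotransferase *Ust* (-0.26, SE 0.126). With the PV minus pyramidal index *Chst15* was at -0.182 and *Ust* at -0.184.

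Of 7 degradation genes 5 were lower (median -0.087). *Arsb*, the lysosomal sulfatase that removes 4-sulfate from the chains, read 15.4, 17.4, 14.8 and 15.6 TPM with CNO and 21.9, 19.2, 19.3 and 19.4 TPM with vehicle. Every CNO sample was below every vehicle sample, the log2 fold change was -0.27 (SE 0.079, exact permutation p = 0.0286, adjusted p = 0.817 in edgeR) and it was -0.25 without vehicle replicate 1. The glucuronidase *Gusb* also did not overlap between groups in CPM (13.7 ± 0.768 against 14.6 ± 0.271, SD, n = 4 each), with a log2 fold change of -0.089.

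Lecticans are cut by proteases of the ADAMTS and MMP families and the cuts are restrained by TIMP inhibitors. Of 11 such genes tested 5 were higher and 6 lower (median log2 fold change -0.063). *Adamts1*, a lectican-cleaving protease, read 8.36, 8.10, 8.15 and 10.0 TPM with CNO and 4.73, 5.49, 8.19 and 8.00 TPM with vehicle. CNO replicate 4 lay above all vehicle samples, the other 3 CNO samples lay at about the level of vehicle replicates 3 and 4, and vehicle replicates 1 and 2 were lower. Its log2 fold change was 0.53 (SE 0.210, exact permutation p = 0.0571, adjusted p = 0.817 in edgeR), 0.365 without vehicle replicate 1 and 0.241 with the PV minus pyramidal index. The gelatinase *Mmp2* read 0.249, 0.924, 0.659 and 0.567 TPM with CNO and 1.16, 0.957, 0.848 and 1.37 TPM with vehicle, a log2 fold change of -0.79 (SE 0.334, exact permutation p = 0.0571, adjusted p = 0.817 in edgeR), at a mean of 0.841 TPM. *Adamts15* had a log2 fold change of 0.24 (SE 0.145), and 0.152 without vehicle replicate 1.

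Receptors and ligands of the net showed values mostly on the lower side. Of 6 receptors for chondroitin sulfate 5 were lower (median -0.153), among them the Nogo receptor genes *Rtn4rl2* (-0.23, SE 0.105) and *Rtn4r* (-0.18, SE 0.108) and the receptor phosphatase *Ptprd* (-0.215, SE 0.152). Of 12 ligands and surface partners 9 were lower (median -0.076), including pleiotrophin, *Ptn*, a ligand of PTPRZ1 (-0.196, SE 0.1001), the semaphorin receptor *Nrp1* (-0.265, SE 0.175) and *Nrcam* (-0.14, SE 0.098). Without vehicle replicate 1 the log2 fold change was -0.106 for *Ptprd* and -0.135 for *Nrp1*, and with the PV minus pyramidal index it was -0.0116 and -0.0465. That index gave -0.155 for *Rtn4rl2*, -0.0737 for *Rtn4r*, -0.103 for *Ptn* and -0.0973 for *Nrcam*. *Otx2*, whose protein binds nets and enters PV+ cells from outside, was listed at 0 in all 8 samples. Of 8 genes for hyaluronan turnover and binding 5 were higher (median 0.081), with *Hmmr* at 0.50 (SE 0.267), *Stab2* at 0.44 (SE 0.290) and *Cemip* at -0.18 (SE 0.133). Of 12 other proteoglycan cores, *Ptprz1* and *Cspg5* included, 9 were higher (median 0.143), with *Spock2* at 0.39 (SE 0.190), 0.21 without vehicle replicate 1 and 0.104 with the PV minus pyramidal index. The tenascins *Tnc* and *Tnxb* differed by 0.054 (SE 0.395) and 0.066 (SE 0.194), and *Hapln3*, at a mean of 1.01 TPM, by 0.55 (SE 0.316).

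**Figure D5:**
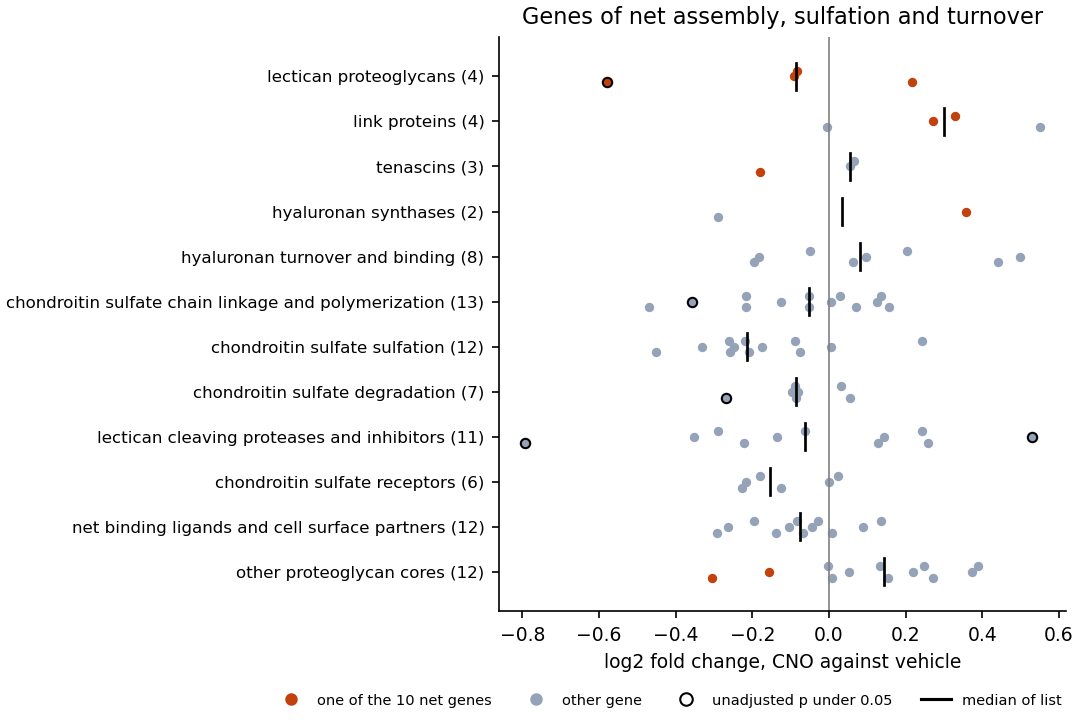
Log2 fold change, CNO against vehicle, of every tested gene in 12 lists of matrix genes (number tested in parentheses). Orange points are the 10 net genes, grey points other genes, black rings an unadjusted p under 0.05 and bars the median of a list. The medians lie between -0.214 for sulfation genes and 0.301 for link proteins, and ringed points, 5 in all, include Vcan, Arsb, Csgalnact1, Mmp2 and Adamts1.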

How the data were processed

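RNA-seq of ribosome-associated mRNA was available for 4 CNO and 4 vehicle samples, grouped and numbered by the sample labels. Per the labels and Methods, reads passed through Trim Galore, STAR (GRCm38), Salmon and tximport, and the authors deposited estimated counts per gene, neither normalized nor filtered. The authors also deposited TPM, in which the transcript length is estimated in each sample, so that a different isoform mix can alter TPM without altering counts. Versions of these tools are not given in the sources used here. Strand-specific counting is not stated, so that reads of overlapping genes cannot be told apart. For the age the Methods start slightly later than the labels.

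Rounded counts entered edgeR 4.0.16 (R 4.3.3). Genes with fewer than 10 counts in 4 or more samples were dropped, libraries were scaled by TMM, and the quasi-likelihood test set CNO against vehicle, with p-values adjusted by Benjamini-Hochberg over all 17495 genes. A call needed an adjusted p under 0.05, more than 1.5-fold and a mean TPM above 1. Standard errors were derived from the F statistic, and log2 CPM used a prior count of 2. Exact permutation tests were two-sided (scipy 1.17.1). Scripts were tested on simulated data. Whether equal replicate numbers pair samples was checked by the correlation of deviations from group means, which was 0.0263, -0.0302, 0.161 and 0.239 for numbers 1 to 4, and they were not treated as pairs. The Methods call the samples of a group biological replicates.

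The genes named are all 10 net genes, up to 3 genes with the smallest unadjusted p in each list, the 5 with profiles most like *Acan*, and checks. *Hapln2*, *Has2*, *Otx2*, *Slc26a2* and *Ncam1* were named after their values were seen. The members, lists and tests were chosen with earlier results of these data known. Alternatives were DESeq2 1.42.0, edgeR's likelihood ratio test with robust dispersion, limma 3.58.1 on log2 TPM with 1 or 0.1 added, other normalizations and filters, a replicate block, 2 marker indices as covariates and each sample left out. A term for replicates 1 and 2 against 3 and 4, values within these, and marker means of log2 TPM were added after seeing the data. Gene positions came from GENCODE M21, which holds 45143 of the 45706 identifiers, and promoter sequence from RefSeq (GRCm38.p6), which matched 7 of the 10 genes.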

Additional observations from a re-analysis of the deposited data

Results flagged for a closer look

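Of 36 groups of 4 samples (10 net genes and 8 marker lists in each treatment group), 5 held a sample whose distance to its nearest neighbour took up more than 0.829 of the group's range on the log2 CPM scale. Chance alone flags about 1 in 20 groups, or 1.8 here. Vehicle replicate 1 was low in 3 of them. *Hapln1* was at 3.88 there against 4.87 to 5.05 in the other vehicle samples (ratio 0.841), and *Hapln4* at 7.04 against 7.99 to 8.18 (ratio 0.839). The mean of the 10 listed PV+ interneuron markers was at 5.51 against 6.79 to 6.99 (ratio 0.864). *Ptprz1* was low in vehicle replicate 2 (5.38 against 5.63 to 5.68, ratio 0.834), and *Cspg5* was low in CNO replicate 4 (7.06 against 7.24 to 7.27, ratio 0.854).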

How the results depend on the processing

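The number of net genes called was 0 under every alternative tried. Over 20 alternatives the 10 net genes gave 200 log2 fold changes, of which 193 kept their direction, and the lowest adjusted p of any of them was 0.473. The index of PV+ interneuron minus pyramidal cell markers reversed *Acan* (-0.0567), *Hapln1* (-0.135) and *Hapln4* (-0.0381), and the astrocyte and precursor index reversed *Bcan* (0.00634), *Ncan* (0.0543), *Hapln1* (-0.151) and *Hapln4* (-0.0432). *Acan* was also reversed within replicates 3 and 4 (-0.0377). The cause was not tested.

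For 26 other pathway genes, 505 of 520 values kept their direction. *Nrp1* was reversed with the astrocyte and precursor index (0.0228). *Tnxb* was reversed by limma on log2 TPM (-0.0209 with 1 and -0.042 with 0.1 added) and by the 2 indices (-0.019 and -0.0662), and leaving out samples gave -0.0775 to 0.178. *Tnc* was reversed by the robust dispersion (-0.177), library size alone (-0.00171), limma (-0.135 and -0.401) and the replicate block (-0.138), with -0.46 to 0.316 on leaving out samples. The difference in other interneuron markers ranged from -0.0602 to 0.0177 on leaving out samples.

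Among all genes, 0 were called, but 12 by the robust likelihood ratio test, 10 by DESeq2, 4 without a filter on low counts, 3 with the term for replicates 1 and 2 against 3 and 4, and 0 to 2 on leaving out a sample (2 without CNO replicate 1). Replicate numbers are not given as pairs and were not treated as such. Correlations of -0.0302 to 0.239 between samples of equal number had no reference value and do not decide whether they are pairs. With the term for replicates 1 and 2 against 3 and 4, 1193 genes were at an unadjusted p under 0.05 in the quasi-likelihood test, against 716 without it. With a replicate block 0 genes and 0 net genes were called, 765 genes were at an unadjusted p under 0.05, and the log2 fold change was -0.562 for *Vcan* and 0.284 for *Acan*. *Has3*, *Vcan* and *Acan* rest on the fewest counts of the 10 net genes.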
